A study of Mus musculus with 6 samples.

Results

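Transcripts of 10 neutrophil granule genes were followed through 6 RNA-seq libraries of sorted mouse bone marrow cells, the early LPre-B stage (L for large). The genes were chosen by name, and their Entrez IDs were looked up in a table of 13426 genes, in which all 10 had a row. They were *Mpo*, *Elane* and *Prtn3* of the azurophil granules, *Ltf*, *Lcn2*, *Camp* and *Ngp* of the specific granules, *S100a8* and *S100a9*, whose products form the cytosolic protein calprotectin, and *Lyz2*, which encodes lysozyme. The set was proposed with earlier results of these libraries known, so the values of the 10 genes are given as a description, without a test between groups.

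Ctrl mice carried Upf1 Flox/Flox with Mb1 +/+, and Upf1-cKO mice carried Upf1 Flox/Flox with Mb1 Cre/+, with 3 libraries per group, so both groups held the floxed allele and differed by the Cre allele. Cre was expressed from the Mb1 (*Cd79a*) locus, which is active in the B lineage, and removed internal exons of *Upf1*, whose product is a helicase that acts in nonsense-mediated decay of mRNA. Per the study's methods, mice were age-matched adults of both sexes, and the sort gate took, among other criteria, large cells that were B220 positive, surface IgM negative, CD43 positive and CD2 negative. Cells stained for CD3e, CD11b, CD11c, F4/80 or TER-119 were gated out, and no antibody to Ly6G or Gr-1 was listed among these lineage stains.

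Neutrophils build their granules in sequence as they mature in the bone marrow. Promyelocytes make the azurophil proteins, among them myeloperoxidase (*Mpo*) and the serine proteases neutrophil elastase (*Elane*) and proteinase 3 (*Prtn3*). Myelocytes and metamyelocytes then make the specific granule proteins, and gelatinase granules and the surface receptors of the mature cell follow. C/EBP transcription factors act along this path, and C/EBP-epsilon (*Cebpe*) is known for its role in specific granule genes.

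Depth was similar across libraries, with 9732498 to 11006834 recovered reads. *Upf1* itself, summed over the whole gene, stood at 241 ± 32.3 normalised reads (SD, n = 3) in Ctrl and 297 ± 12.7 (SD, n = 3) in cKO-labelled libraries (log2 fold change 0.31, SE 0.089, limma adjusted p 0.00696, and 0.0645 when centred on the median), so this row does not show the deletion, and it does not resolve the removed exons. *Cd79a*, the locus that holds the Cre allele, was lower in the cKO-labelled libraries (log2 fold change -1.58, limma adjusted p 1.24e-11). Among 10 B lineage identity genes, which included *Ebf1*, *Pax5* and *Igll1*, 3 were higher and 3 were lower in limma (adjusted p threshold 0.05), near the shares of 27.7% higher and 25.0% lower among all genes, and their summed level ranged from 2426 to 2644 normalised reads in Ctrl and from 2361 to 2494 in cKO-labelled libraries. Libraries are called Ctrl 1 to 3 and Upf1-cKO 1 to 3 by their labels.

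The windows of 250 bases before the annotated start of each gene are introduced first, because the specific granule members moved together and apart from the azurophil members *Mpo* and *Prtn3*. The azurophil member *Elane* was also higher in all cKO-labelled libraries, though Ctrl 1 was its lowest library. Sequences are from RefSeq (GRCm38.p6), 5′ to 3′ on the strand of the gene, and all 10 genes matched. Capitals mark letters that match TTGCNNAA, a core of C/EBP sites, or GAGGAAG, a core of PU.1 sites, on either strand, and no match of one overlapped a match of the other in these windows. *Ltf* (chr9:111019042-111019291, plus strand), *Ngp* (chr9:110419558-110419807, plus strand) and *Lcn2* (chr2:32387740-32387989, minus strand) are shown as specific granule genes, and *Elane* (chr10:79886062-79886311, plus strand) as an azurophil gene.
Ltf: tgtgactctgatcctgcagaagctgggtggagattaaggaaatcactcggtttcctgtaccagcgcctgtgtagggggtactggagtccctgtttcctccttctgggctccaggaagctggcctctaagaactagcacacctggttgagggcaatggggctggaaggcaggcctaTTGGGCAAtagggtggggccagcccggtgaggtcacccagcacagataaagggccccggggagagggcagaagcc
Ngp: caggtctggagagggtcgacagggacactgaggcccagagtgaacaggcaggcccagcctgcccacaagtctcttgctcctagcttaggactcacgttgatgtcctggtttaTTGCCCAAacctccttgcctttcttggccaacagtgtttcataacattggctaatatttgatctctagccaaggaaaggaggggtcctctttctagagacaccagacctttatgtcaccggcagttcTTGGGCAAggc
Lcn2: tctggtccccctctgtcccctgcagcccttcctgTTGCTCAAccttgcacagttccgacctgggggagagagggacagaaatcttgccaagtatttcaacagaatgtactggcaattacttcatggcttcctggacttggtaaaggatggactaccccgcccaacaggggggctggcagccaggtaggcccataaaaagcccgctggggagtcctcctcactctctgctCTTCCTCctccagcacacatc
Elane: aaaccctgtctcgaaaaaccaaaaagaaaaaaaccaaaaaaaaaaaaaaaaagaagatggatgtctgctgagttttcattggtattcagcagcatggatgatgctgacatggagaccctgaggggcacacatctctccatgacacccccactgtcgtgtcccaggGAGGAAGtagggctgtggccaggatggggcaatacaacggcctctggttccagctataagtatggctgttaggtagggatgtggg

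TTGCNNAA was present in 3 of the 4 specific granule windows and in that of *S100a9*, and in 0 of the 3 azurophil windows. It was found in 9.56% of the 32851 windows of the same length in the annotation. The *Ltf* match began 75 bases before the start, the *Lcn2* match 216 bases before it, and the *Ngp* window held a pair of matches, 138 and 11 bases before the start. GAGGAAG was present in 3 of the 3 azurophil windows, in those of *Lcn2* and *S100a8*, and in 10.6% of all windows. Neither was found in the windows of *Camp* and *Lyz2*. A match describes letters and is not evidence of a bound factor.

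The 10 genes took 0.0143% of the reads in Ctrl 1, 0.00593% in Ctrl 2 and 0.00394% in Ctrl 3, with exact 95% binomial intervals of 0.0136% to 0.0151%, 0.00549% to 0.00641% and 0.00357% to 0.00434%. In cKO-labelled libraries they took 0.056%, 0.0438% and 0.0421%. These intervals cover counting error only, since reads were not tied to single molecules. The summed level was 87.5 ± 59.6 normalised reads (SD, n = 3) in Ctrl and 442 ± 78.6 (SD, n = 3) in cKO-labelled libraries. All cKO-labelled libraries were above all Ctrl libraries, and Ctrl 1 was 2.87 times the mean of the other 2 Ctrl libraries. In bulk RNA, more cells of a type and more RNA per cell cannot be told apart.

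The specific granule genes were high in all 3 cKO-labelled libraries, intermediate in Ctrl 1 and low in Ctrl 2 and Ctrl 3. *Ltf* encodes lactoferrin, an iron-binding protein. It had 263, 17 and 18 reads in Ctrl 1, 2 and 3, and 1190, 917 and 1021 reads in Upf1-cKO 1, 2 and 3. The group means were 10.5 ± 15.1 and 95.0 ± 18.4 normalised reads (SD, n = 3 per group), a 9.02-fold ratio that was 52.7-fold with Ctrl 1 left out. The SD among Ctrl libraries exceeded their mean and Ctrl 1 stood at 15.5 times the mean of the other Ctrl libraries.

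*Ngp*, which encodes neutrophilic granule protein, had the most reads of the 10 genes in each cKO-labelled library. It had 422, 26 and 22 reads in Ctrl 1, 2 and 3 and 1518, 1414 and 1135 reads in Upf1-cKO 1, 2 and 3. The ratio of group means was 7.46, and 50.4 without Ctrl 1. *Camp*, the gene of the antimicrobial peptide cathelicidin, had 81, 3 and 11 reads in the Ctrl libraries and 228, 180 and 196 in the cKO-labelled libraries. *Lcn2* encodes lipocalin 2, which binds bacterial siderophores. It had 89, 9 and 6 reads in the Ctrl libraries and 214, 164 and 192 in the cKO-labelled libraries. Ratios of group means were 5.43 for *Camp* and 4.68 for *Lcn2*, and 24.6 and 21.6 without Ctrl 1. For all 4 genes the lowest cKO-labelled library was above the highest Ctrl library, as it was for 30.9% of all 13426 genes (28.0% had the opposite order). The deposited table holds genes above about 0.5 normalised reads in any 3 libraries. *Camp* was above 0.5 in only 2 Ctrl libraries, so its row needed a cKO-labelled library.

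Calprotectin genes followed the same order of libraries. *S100a9* had 206, 21 and 29 reads in Ctrl 1, 2 and 3 and 1148, 955 and 985 reads in Upf1-cKO 1, 2 and 3. Its partner *S100a8*, which lies on the same chromosome (S100a8 at chr3:90669071-90670034 and S100a9 at chr3:90692630-90695721), had 69, 5 and 8 reads in the Ctrl libraries and 341, 231 and 285 in the cKO-labelled libraries. The group means of *S100a9* were 9.01 ± 11.2 and 93.8 ± 15.9 normalised reads (SD, n = 3 per group), the highest ratio among the 10 genes at 10.4. With Ctrl 1 left out, the ratio was 36.8 for *S100a9* and 37.3 for *S100a8*, and that of *Ltf* was then the highest.

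The azurophil genes had few reads and did not share this order. *Mpo* had 19, 84 and 38 reads in Ctrl 1, 2 and 3 and 77, 56 and 62 reads in Upf1-cKO 1, 2 and 3. Its group means were 4.81 ± 3.34 and 5.98 ± 1.38 normalised reads (SD, n = 3 per group), the groups overlapped, and Ctrl 2 was the highest of the 6 libraries. The log2 ratio of 0.31 turned to -0.049 without Ctrl 1 and to 1.02 without Ctrl 2.

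*Prtn3* had 7, 11 and 7 reads in the Ctrl libraries and 12, 1 and 16 in the cKO-labelled libraries, so 1 cKO-labelled library was the lowest of all. Its group means were 0.901 ± 0.227 and 0.915 ± 0.681 normalised reads (SD, n = 3 per group), a difference far smaller than the spread. *Elane*, its neighbour on chromosome 10, had 1, 8 and 5 reads in the Ctrl libraries and 19, 16 and 26 in the cKO-labelled libraries. It was the azurophil gene whose groups did not overlap, at 0.521 ± 0.350 and 1.87 ± 0.374 normalised reads (SD, n = 3 per group), a ratio of 3.60, and of 2.67 without Ctrl 1. Like *Camp*, it was above 0.5 normalised reads in only 2 Ctrl libraries, so its row needed a cKO-labelled library. In all 3 azurophil genes Ctrl 1 was at or below the mean of the other Ctrl libraries, at 0.335 times for *Mpo*, 0.227 times for *Elane* and 0.836 times for *Prtn3*.

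*Lyz2*, which is expressed in neutrophils and also in monocytes and macrophages, had 295, 469 and 266 reads in the Ctrl libraries and 703, 543 and 696 in the cKO-labelled libraries. Its level was 35.1 ± 10.97 and 58.8 ± 9.82 normalised reads (SD, n = 3 per group), a ratio of 1.68. The groups did not overlap, and Ctrl 1 lay between the other Ctrl libraries. *Lyz2* has a close paralog, *Lyz1*, beside it in the genome, so its reads are uncertain. *Mpo* overlaps the annotated gene *Gm34064*, and counting ignored strand. Neither *Lyz1* nor *Gm34064* had a row in the deposited table.

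**Figure D1:**
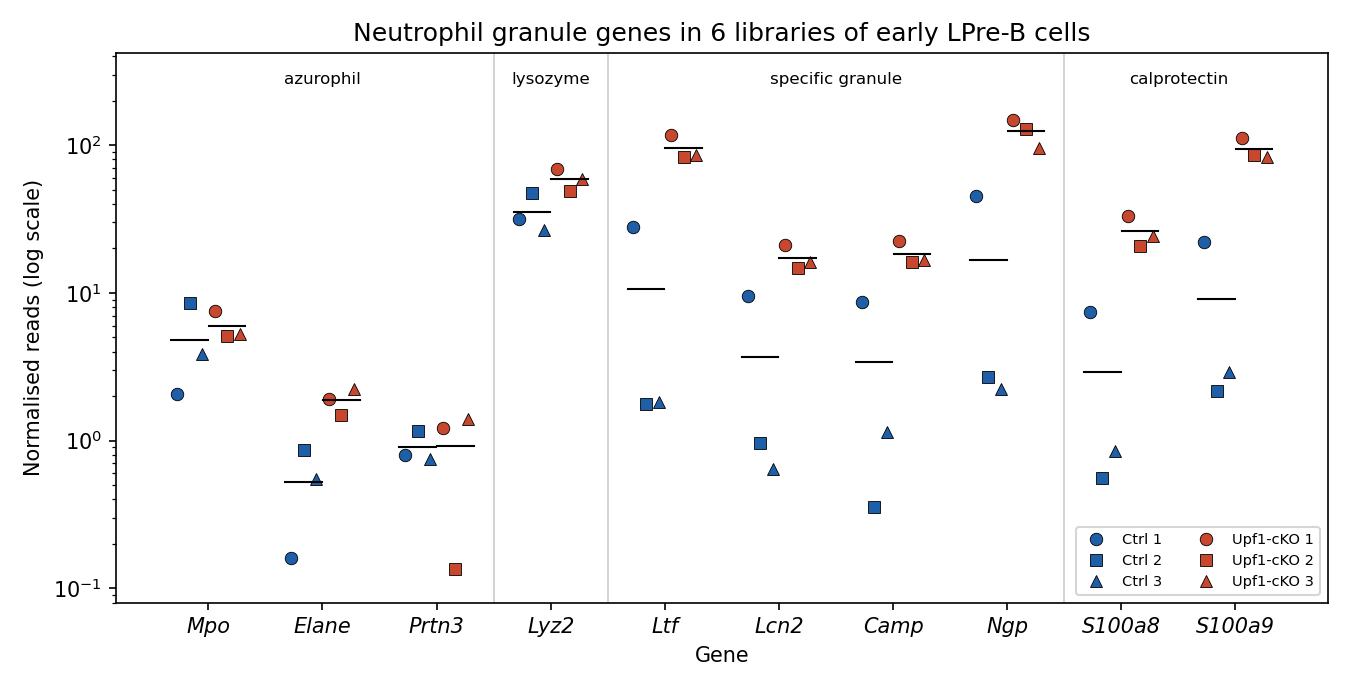
Normalised reads (log scale) of each of the 10 genes in each library, with horizontal lines at the group means of 3 libraries. For *Ltf*, *Lcn2*, *Camp*, *Ngp*, *S100a8* and *S100a9* the circle of Ctrl 1 lies between the other Ctrl libraries and the cKO-labelled libraries, whereas for *Mpo* and *Elane* it is the lowest point.

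To compare azurophil with specific granule genes, levels were divided by the exon length of each gene and summed per library. Azurophil genes summed to 1.23, 4.04 and 2.10 normalised reads per kb in Ctrl 1, 2 and 3 and to 4.85, 3.08 and 4.61 in Upf1-cKO 1, 2 and 3, and the groups overlapped. Specific granule genes summed to 59.9, 3.54 and 4.11 in the Ctrl libraries and to 192, 155 and 131 in the cKO-labelled libraries. The specific sum was 48.8 times the azurophil sum in Ctrl 1, but 0.876 and 1.96 times in Ctrl 2 and 3, and 39.7, 50.5 and 28.5 times in Upf1-cKO 1, 2 and 3. By this ratio Ctrl 1 lay inside the range of the cKO-labelled libraries.

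On the log2 scale the ratio of azurophil to specific sums was -2.13 ± 3.07 (SD, n = 3) in Ctrl and -5.27 ± 0.415 (SD, n = 3) in cKO-labelled libraries. The difference of -3.14 was close to the spread among Ctrl libraries, and it was -4.88 without Ctrl 1 and -1.98 without Ctrl 2. The log2 ratio of group means was 0.77 for the azurophil sum and 2.83 for the specific sum, which became 5.38 without Ctrl 1.

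**Figure D2:**
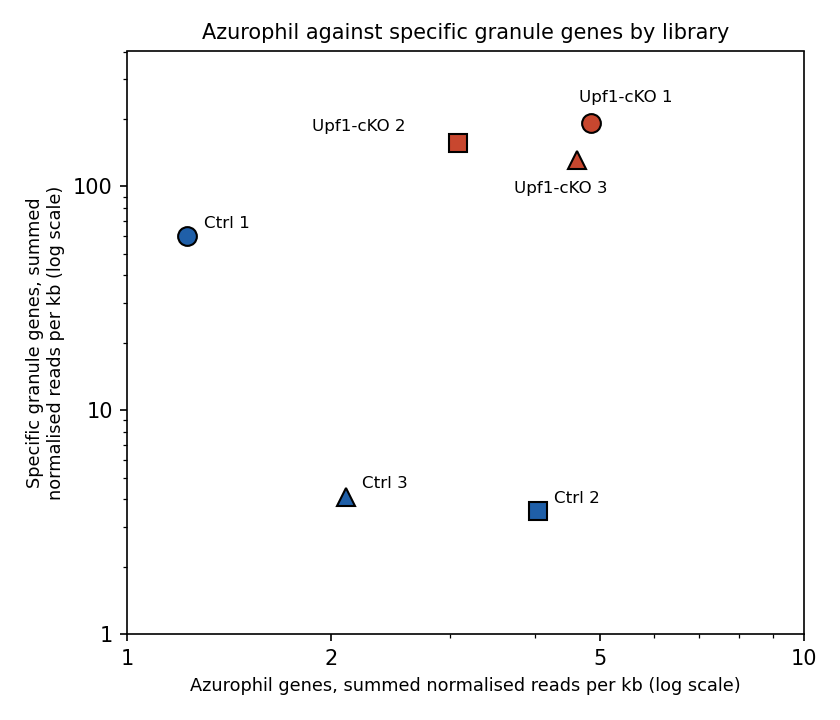
Summed normalised reads per kb of exons of the azurophil genes (horizontal, log scale) against those of the specific granule genes (vertical, log scale), 1 point per library. Azurophil sums span 1.23 to 4.85 with the groups mixed, while specific sums of the cKO-labelled libraries lie at 131 to 192 and that of Ctrl 1 at 59.9, above the other Ctrl libraries at 3.54 and 4.11.

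Per kb of exons, the order of levels in cKO-labelled libraries was *S100a9* (180 ± 30.5 normalised reads per kb, SD, n = 3), *Ngp* (101 ± 21.6), *Lyz2* (44.7 ± 7.46), *S100a8* (37.6 ± 9.32), *Ltf* (27.5 ± 5.34), *Camp* (24.2 ± 4.48), *Lcn2* (6.61 ± 1.22), *Elane* (1.91 ± 0.380), *Mpo* (1.75 ± 0.402) and *Prtn3* (0.528 ± 0.393). The neighbours *Lyz2* and *S100a8*, *Ltf* and *Camp*, and *Elane* and *Mpo* differed by less than their SDs. In Ctrl 2 and 3 the order was different, with *Lyz2* first at 36.0 and 20.1 normalised reads per kb and *S100a9* next at 4.16 and 5.61.

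The make-up of the specific granule and calprotectin reads was then compared between libraries, since the 6 genes summed to 1130 reads in Ctrl 1, 81 in Ctrl 2, 94 in Ctrl 3 and 4639, 3861 and 3814 in Upf1-cKO 1, 2 and 3. *Ngp* made up 37.3% of these reads in Ctrl 1 (exact 95% binomial interval 34.5% to 40.2%) and 32.7%, 36.6% and 29.8% in Upf1-cKO 1, 2 and 3, so that 2 of these 3 shares lay below the interval of Ctrl 1. The intervals of Upf1-cKO 1, 2 and 3 (31.4% to 34.1%, 35.1% to 38.2% and 28.3% to 31.2%) did not overlap each other either. Lying outside such an interval, which covers counting error only, therefore does not set Ctrl 1 apart. *Ltf* made up 23.3% in Ctrl 1 (20.8% to 25.9%) and 23.8% to 26.8% in cKO-labelled libraries. *S100a8* shares were close, at 6.11% in Ctrl 1 (4.78% to 7.66%) and 5.98% to 7.47%.

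For the other 3 genes the Ctrl 1 interval, which covers counting error only, held no share of a cKO-labelled library. *S100a9* made up 18.2% in Ctrl 1 (16.02% to 20.6%) and 24.7% to 25.8% in cKO-labelled libraries, while *Lcn2* made up 7.88% (6.37% to 9.60%) against 4.25% to 5.03%, and *Camp* 7.17% (5.73% to 8.83%) against 4.66% to 5.14%. In Ctrl 2 and 3 the shares rest on few reads. The *S100a9* intervals of Ctrl 2 (16.8% to 36.9%) and Ctrl 3 (21.7% to 41.2%) held the cKO-labelled values. *Lcn2* made up more in every Ctrl library (11.1% in Ctrl 2 and 6.38% in Ctrl 3) than in any cKO-labelled library. Its interval began at 5.21% in Ctrl 2, above the cKO-labelled shares, but held them in Ctrl 3 (2.38% to 13.4%). The *Camp* interval began at 5.99% in Ctrl 3, above the cKO-labelled shares, but held them in Ctrl 2 (0.77% to 10.4%).

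**Figure D3:**
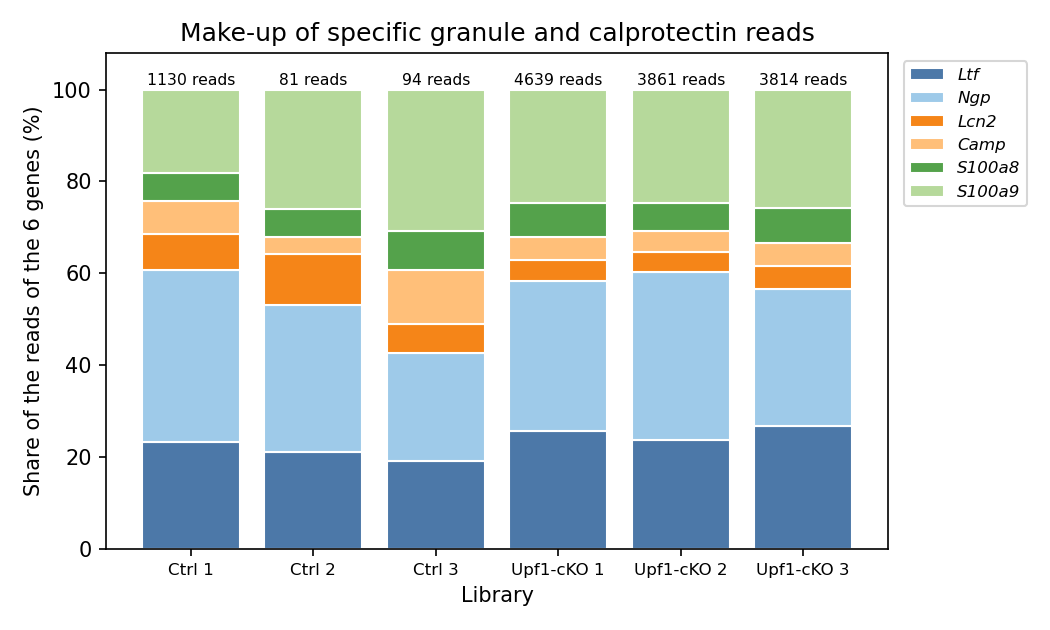
Share in percent of the reads of 6 genes that fell on each gene, by library, with the number of reads above each bar. *Ngp* is the largest block in Ctrl 1 and in each cKO-labelled library, and the *S100a9* block is smaller in Ctrl 1 (18.2%) than in the cKO-labelled libraries (24.7% to 25.8%).

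Whether other neutrophil genes moved in the same way was examined in 4 lists of 46 genes that held none of the 10. Of these 40 had a row, and with limma on log2(value + 1) 27 were higher and 6 were lower in the libraries labelled Upf1-cKO (threshold: adjusted p of 0.05), against 27.7% of all genes higher and 25.0% lower. Over all genes, 3725 were higher and 3351 lower, a split that was 5172 and 1936 when scaled to total reads and 2992 and 4355 when centred on the median. Without Ctrl 1 these counts were 28 and 5, against 27.1% and 25.0% of all genes. A log2 fold change of at least 2 was reached by 4 of the 27, against 1.14% of all genes higher and 0.492% lower by that size. The median log2 fold change of the 40 was 0.98, and that of all genes was 0.010. A gene entered the deposited table by exceeding about 0.5 normalised reads in any 3 libraries, and 19 of the 40 were under that level in at least 1 Ctrl library. Such genes could be present through the cKO-labelled libraries, which favours calls of higher, although some of them, such as *Ctsg*, were not called. Among the 21 above it in every Ctrl library, 11 were higher and 6 were lower.

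The list of other specific and gelatinase granule genes had 12 of 13 genes higher and 0 lower in limma, with a median log2 fold change of 1.47. Of the 9 genes above 0.5 normalised reads in every Ctrl library, 8 were higher. *Mmp9*, the gene of gelatinase B, had 100, 15 and 10 reads in the Ctrl libraries and 395, 283 and 283 in the cKO-labelled libraries (log2 fold change 2.91, SE 0.79, limma adjusted p 0.0376, and up to 0.112 with 1 library left out). *Mmp8*, the neutrophil collagenase, rose by 2.30 (SE 0.51, adjusted p 0.0106, and up to 0.0535 with 1 library left out). *Cd177*, a neutrophil surface glycoprotein of these granules, differed by 2.32 on the log2 scale (SE 0.62, adjusted p 0.0322, and up to 0.111 with 1 library left out). *Chil3*, a chitinase-like protein, rose by 1.67 (SE 0.22, adjusted p 1.88e-05). As in the specific granule members, *Mmp9* was 8.19 times higher in Ctrl 1 than in the mean of the other Ctrl libraries, and its adjusted p was 3.93e-11 without Ctrl 1 and 0.0557 with edgeR. *Mmp8* overlaps the annotated gene *Gm31751*.

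Genes of the surface and cytosol of the mature neutrophil had 12 of 14 higher and 1 lower, with a median log2 fold change of 1.31. Of these 14, 10 were under 0.5 normalised reads in at least 1 Ctrl library, *Cxcr2*, *Retnlg*, *Mcemp1* and *Ly6g* among them, and of the other 4, 3 were higher and 1 was lower. *Cxcr2*, the chemokine receptor that draws neutrophils out of the marrow, had 10, 1 and 0 reads in the Ctrl libraries and 32, 50 and 46 in the cKO-labelled libraries (log2 fold change 1.83, SE 0.26, limma adjusted p 9.38e-06). *Retnlg* had a log2 fold change of 2.60 (SE 0.74, limma adjusted p 0.0394), a call that was lost in 8 of 14 alternatives, with an adjusted p of up to 0.121. *Mcemp1* rose by 1.53 (SE 0.29, adjusted p 0.000246) and *Padi4*, the enzyme that citrullinates histones, by 1.44 (SE 0.21, adjusted p 1.24e-05). *Ly6g*, named after its values were seen because it defines mouse neutrophils, had 10, 0 and 0 reads in the Ctrl libraries and 23, 19 and 18 in the cKO-labelled libraries (log2 fold change 1.11, limma adjusted p 0.00173). The lower gene was *Itgam*, which encodes the CD11b of the lineage stain and was also named after its values were seen. It had 371, 334 and 264 reads in the Ctrl libraries and 295, 255 and 255 in the cKO-labelled libraries (log2 fold change -0.42, limma adjusted p 0.0199, and 0.101 without Ctrl 1).

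Of 7 other azurophil and promyelocyte genes 1 was higher and 3 were lower in limma, with 27.7% and 25.0% among all genes, and the median log2 fold change was -0.14. *Srgn*, the proteoglycan serglycin, had a log2 fold change of -0.99 (limma adjusted p 1.44e-07), *Serpinb1a*, an elastase inhibitor, one of -0.87 (adjusted p 2.69e-06) and *Ctsc*, the protease that activates granule serine proteases, one of -0.33 (adjusted p 0.012, and 0.31 when scaled to total reads). These 3 genes had from 296 to 867 reads in every library and are also expressed outside neutrophils. *Cd63*, a granule membrane protein, was the higher gene (log2 fold change 0.89, adjusted p 0.00466), with 0 to 5 reads in Ctrl and 11 to 23 in cKO-labelled libraries, and it was under 0.5 normalised reads in 1 Ctrl library. *Ctsg*, named after its values were seen because cathepsin G is a defining azurophil protease, had 4, 25 and 4 reads in the Ctrl libraries and 14, 16 and 5 in the cKO-labelled libraries (log2 fold change 0.067, SE 0.33, limma adjusted p 0.882). As in *Mpo*, its highest library was Ctrl 2.

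Of 6 granulocyte transcription factors 2 were higher and 2 were lower (33.3% each), near the shares of 27.7% and 25.0% among all genes. Both higher genes were under 0.5 normalised reads in at least 1 Ctrl library, and of the 4 above that level in every Ctrl library 0 were higher and 2 were lower in limma. *Cebpe* had 3, 6 and 0 reads in the Ctrl libraries and 28 in each cKO-labelled library (log2 fold change 1.42, SE 0.22, limma adjusted p 3.25e-05), and Ctrl 1 did not stand above the other Ctrl libraries. *Cebpd* had a log2 fold change of 0.62 (limma adjusted p 0.0325, and up to 0.14 with 1 library left out). *Spi1*, which encodes PU.1 and is also active in B cell precursors, had a log2 fold change of -1.16 (limma adjusted p 9.73e-07), and *Gfi1*, a repressor used in both lineages, one of -0.47 (adjusted p 0.00221, and 0.0595 when scaled to total reads).

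**Figure D4:**
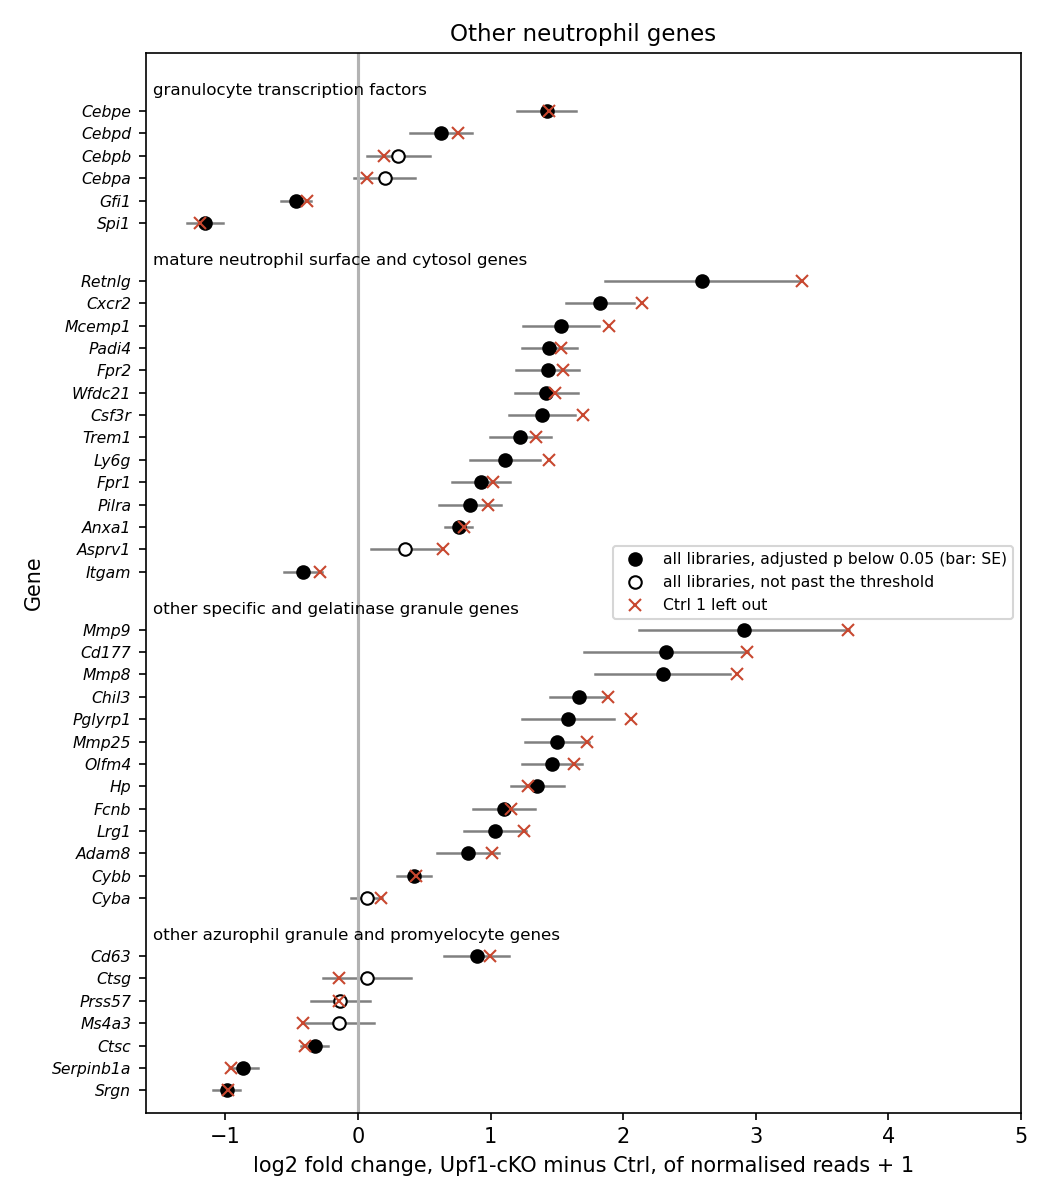
The log2 fold change of normalised reads + 1 (cKO-labelled minus Ctrl, horizontal) for 40 neutrophil genes outside the 10, grouped by list, with bars of 1 SE. Filled points passed an adjusted p of 0.05 in limma and crosses give the value with Ctrl 1 left out, which lies further to the right for *Mmp9*, *Cd177*, *Mmp8* and *Retnlg*.

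Ctrl 1 was examined for other genes that set it apart, by a rule chosen after the data were seen. In Ctrl 1, 18 genes had at least 20 reads and at least 4 times the level of both other Ctrl libraries, compared with 7 such genes in Ctrl 2, 2 in Ctrl 3 and 0 to 4 in the cKO-labelled libraries. Of these 18 genes 6 were members (*Ltf*, *Lcn2*, *Camp*, *Ngp*, *S100a8* and *S100a9*), 5 were in the other neutrophil lists and 7 were in no list. The 7 held *Abca13* and *Trpm2* as well as *Ccnb1ip1*, *Gm10516*, *Ubb-ps*, *Pnp2* and an unnamed gene. Every cKO-labelled library was above Ctrl 1 for 14 of the 18.

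The 10 genes outside the set whose log2 levels were most like the summed members over the 6 libraries, by Pearson correlation among 3580 genes with a range of at least 1 on the log2 scale, were *Slit1* (r = 0.998), *Igf1r*, *Rab11fip3*, *Arap3*, *Cd33*, *Map3k9*, *Pex16*, *Paqr8*, *Slx4ip* and *Mmp9* (r = 0.991). With 6 points in 2 groups, values this high are a description only. *Mmp9* was the neutrophil granule gene among them, and *Cd33*, a myeloid surface receptor, had 12, 5 and 0 reads in the Ctrl libraries and 42 to 55 in the cKO-labelled libraries.

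Markers of other marrow cells were counted in the same fit. Of 99 genes in 10 lists 50 had a row, 13 were higher and 9 were lower (26% and 18%, with 27.7% and 25.0% among all genes). Of the 50, 20 were under 0.5 normalised reads in at least 1 Ctrl library, and of the other 30, 3 were higher and 9 were lower. Their median log2 fold change was 0.021, and -0.018 without Ctrl 1. Of the 9 monocyte and macrophage genes with a row 1 was higher (*Cd163*, under 0.5 normalised reads in 1 Ctrl library, log2 fold change 0.68, limma adjusted p 0.0145, and 0.0709 without Ctrl 1) and 1 was lower (*F13a1*, -0.93, adjusted p 6.45e-05), and their summed level was 36.8 to 65.2 normalised reads in Ctrl and 32.9 to 39.9 in cKO-labelled libraries. *C1qa*, *C1qb*, *C1qc*, *Vcam1*, *Marco*, *Fcgr1* and *Ms4a7* had no row. Of 8 erythroid genes 0 were higher and 1 was lower in limma (*Slc4a1*, -0.86, adjusted p 0.00692).

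The T cell list had 4 of 10 genes in the table, with 0 higher and 2 lower in limma, *Lck* (log2 fold change -1.52) and *Lat* (-0.57, adjusted p 0.0166, and 0.1 when scaled to total reads), and its defining genes *Cd3e*, *Cd3d*, *Cd3g*, *Cd4* and *Cd8a* had no row. Of the 2 NK cell genes with a row, *Klrb1c* rose by 1.40 (adjusted p 2.62e-05), and it was under 0.5 normalised reads in at least 1 Ctrl library. Megakaryocyte genes had 0 of 2 called in limma, *Gp1ba* at 0.39 (adjusted p 0.134) and *Itga2b* at 0.45 (adjusted p 0.134). Stroma and endothelium had 1 of 3 higher, *Col1a1* (0.89, adjusted p 0.00252), which was under that level in every Ctrl library. Of 6 plasma cell genes 0 were higher and 4 were lower, *Slamf7* (-1.59), *Jchain* (-1.22), *Sdc1* (-0.91) and *Mzb1* (-0.36, adjusted p 0.00364, and 0.162 when scaled to total reads).

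Other lists were higher in part. All 4 stem and progenitor genes with a row were higher, *Ly6a* (log2 fold change 2.68, limma adjusted p 2.01e-08), *Hoxa9* (2.47, adjusted p 1.58e-08), *Meis1* (1.18) and *Hlf* (1.07), and 3 of them were under 0.5 normalised reads in at least 1 Ctrl library. Of 7 dendritic cell genes 3 were higher, *Flt3* (3.36, adjusted p 1.85e-11), *Cox6a2* (0.90) and *Ccr9* (0.80), of which *Cox6a2* was under that level in at least 1 Ctrl library. Of 5 mast cell, basophil and eosinophil genes 3 were higher, *Prss34* (1.51), *Hdc* (1.15) and *Mcpt8* (0.91), all 3 under 0.5 normalised reads in at least 1 Ctrl library, and *Prg3* was lower (-1.22, adjusted p 0.000906). The summed levels of the lists were 6.16 to 8.74 and 29.8 to 34.5 normalised reads in Ctrl and cKO-labelled libraries for stem and progenitor genes, 6.70 to 9.51 and 36.8 to 39.9 for dendritic cell genes, 6.62 to 9.30 and 9.03 to 10.8 for mast cell, basophil and eosinophil genes, and 1.17 to 1.59 and 3.79 to 5.27 for NK cell genes. Several of these genes are also expressed in lymphoid progenitors, and the part that any of these cells had in the values of the 10 granule genes was not tested.

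**Figure D5:**
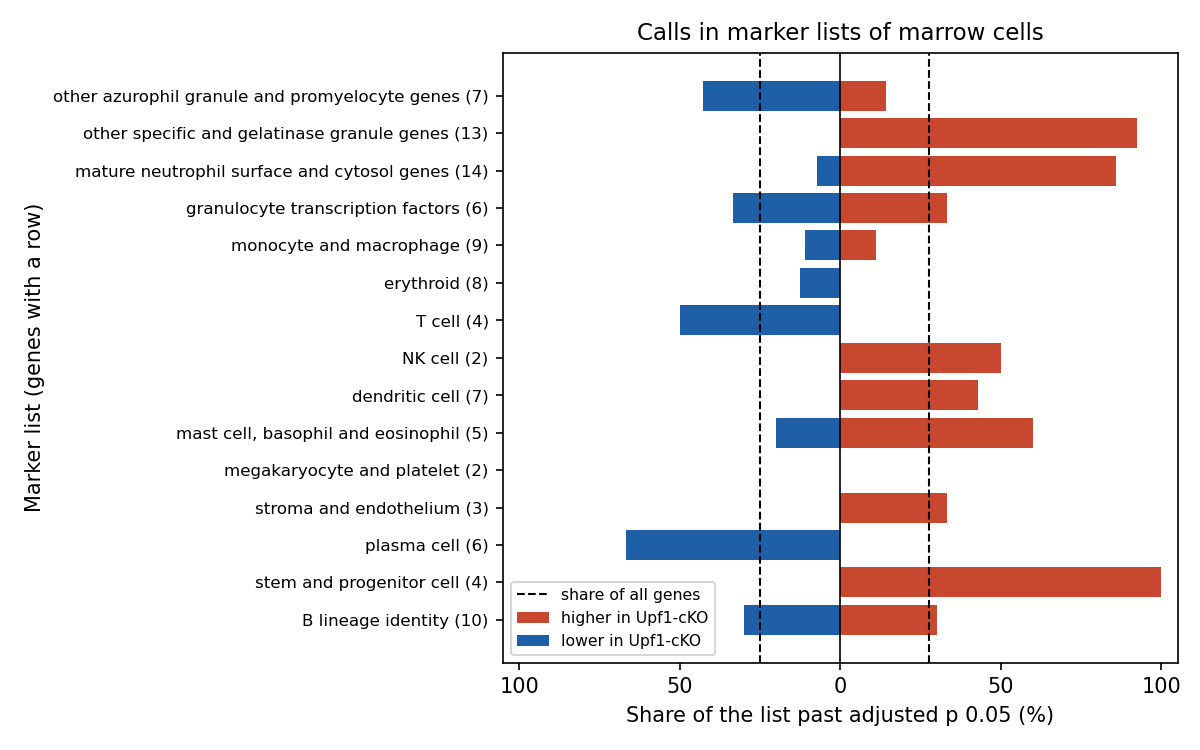
Share in percent of the genes of each marker list (number with a row in parentheses) that were higher (right) or lower (left) in cKO-labelled libraries in limma (adjusted p threshold 0.05), with dashed lines at the shares of all genes, 27.7% and 25.0%. Lists of other specific and gelatinase granule genes and of mature neutrophil genes reach 92.3% and 85.7% higher, but 4 of 13 and 10 of 14 of their genes were under 0.5 normalised reads in at least 1 Ctrl library, and of the others 8 of 9 and 3 of 4 were higher.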

How the data were processed

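Early LPre-B cells of Ctrl and Upf1-cKO mice (3 libraries per group) were profiled by rRNA-depleted, single-end RNA-seq. Per the labels and methods, the authors trimmed reads with cutadapt 4.0, aligned them to mm10 with HISAT2 without use of strand, counted them per gene with featureCounts 2.0.1 and used limma 3.48.0. The deposited values are a linear signal: values equal (reads + 0.5) divided by an effective library size and multiplied by 1000000. They are called normalised reads. Whole reads were recovered for 100% of values (tolerance 0.05 reads). Counting without strand leaves overlapping genes uncertain.

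Symbols and positions came from RefSeq GRCm38.p6, and exon lengths (union of exons) from GENCODE M21 of the same build. The 10 members, the marker lists and the motifs were chosen with earlier results of these data known. limma 3.58.1 in R 4.3.3 was fitted to log2(value + 1) of all 13426 genes, with group as the only term, an intensity trend, robust estimation and Benjamini-Hochberg adjustment, and was tested on simulated data. Fold changes on this scale understate changes of low genes. Members got no test. Ratios of group means are of normalised reads. At most 4 called genes per list were named, by size of log2 fold change, or the 2 of highest mean level where none was called, and others are said to be chosen after their values were seen. Alternatives included edgeR 4.0.16 and DESeq2 1.42.0 on recovered reads. The study calls its replicates biological, but the labels do not tie a library to an animal, so p-values measure the spread between libraries. Within groups, every pair of libraries had a chi-square statistic of 4.39 to 22.0 times its degrees of freedom, above counting error, and each counted as 1 replicate.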

Additional observations from a re-analysis of the deposited data

How the results depend on the processing

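Ctrl 1 was the library on which the sizes depended. Without it the log2 ratio of group means per kb was 3.38 for all members, 5.38 for the specific granule members and 5.20 for the calprotectin members, against 2.54, 2.83 and 3.34 with it. Leaving out each library gave from 2.19 to 3.38, from 2.32 to 5.38 and from 2.87 to 5.20 for these sums. The log2 ratio of *Mpo* reversed to -0.049 without Ctrl 1 and reached 1.02 without Ctrl 2, and that of *Prtn3* reversed to -0.059 without Ctrl 1, -0.097 without Ctrl 3, -0.24 without Upf1-cKO 1 and -0.41 without Upf1-cKO 3, with 0.53 without Upf1-cKO 2. Scaling to total reads, which moved the median of all genes to 0.19, left 1936 genes lower in all and 3 lower among the 40 neutrophil genes. Restricting these 40 to genes above 0.5 normalised reads in every Ctrl library, an alternative chosen after the data were seen, left 11 higher.

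The other log2 ratios of summed members kept their direction under every alternative run, and the count of higher neutrophil genes ran from 19 to 28 under the remaining alternatives. *Mmp9*, *Cd177*, *Mmp8*, *Retnlg*, *Cebpd*, *Itgam*, *Ctsc*, *Lat* and *Ccr9* each lost the adjusted p threshold when at least 1 library other than Ctrl 1 was left out, the highest adjusted p being 0.14 (*Cebpd*). *Cd163* lost it without Ctrl 1 (adjusted p 0.0709), and *Gfi1* and *Mzb1* when scaled to total reads (adjusted p 0.0595 and 0.162), and *Upf1* when centred on the median (adjusted p 0.0645). Over all genes the median change (log2) was -0.098 when centred on the median and -0.0047 with DESeq2. With the replicate block there were 27 higher and 6 lower neutrophil genes and 13 higher and 9 lower markers of other marrow lineages. Deviations of same-numbered libraries correlated at 0.0893, -0.029 and -0.032, which cannot decide whether these libraries were handled as pairs. The column headers give adjacent sample numbers to same-numbered Ctrl and cKO-labelled libraries, and what these numbers stand for is not stated. *Prtn3*, *Elane*, *Ctsg* and *Camp* rest on few reads in some or all libraries.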
